A study of Mus musculus with 12 samples.

Results

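The S100 proteins and annexins of the adult mouse retina were followed on whole-retina expression arrays through 3 days of explant culture, in a pair of mouse strains. The members were 10 genes, S100a1, S100a4, S100a6, S100a10, S100a11 and Anxa1 to Anxa5, and every probe set (the array's unit of measurement for a transcript) annotated with 1 of these symbols and no other was taken. This gave 17 probe sets of 9 genes among the 45037 probe sets tested, 7 for 4 S100 genes and 10 for 5 annexin genes. S100a11 shares its 1 probe set with other genes, 3 symbols in all, so no value is given for it.

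The study held 6 groups of 2 arrays, 12 arrays in all. Neural retina came from mice 10 weeks old of the strains C57BL/6NCrSlc (B6) and 129X1/SvJJmsSlc (129), and no transgene is named for either. The normal retina was taken intact, retinal explants at 3DIV had been kept for 3 days in vitro with the DMSO vehicle, and the remaining explants were kept as long with 15 µM CHIR99021, an inhibitor of glycogen synthase kinase 3 (GSK3). Explantation cuts the optic nerve and is called damage here, so each change after damage combines injury and culture. The study found dying cells in the outer nuclear layer of such explants and took photoreceptors to be the cells mainly damaged. The study's methods name male mice. The sample titles name the arrays of a group as biological replicates. Whether the 2 retinas of a group came from 1 animal is not stated. The p-values therefore measure only the spread between these samples, which may not be the spread between animals.

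S100 proteins are small calcium sensors built from a pair of EF-hand motifs, and they work mostly as dimers that change shape on binding calcium and then bind target proteins. Annexins are calcium-dependent binders of acidic phospholipids that gather at the inner face of membranes and take part in membrane repair, vesicle traffic and the linking of membranes to actin. The families meet in the complex of S100a10 with Anxa2 and in that of S100a11 with Anxa1, in which an S100 dimer bridges a pair of annexins. In the retina, several of these genes are known from glia, which respond to injury, and from microglia and blood vessels.

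Array medians were 68.7 to 70.6 intensity units, which quantile normalization makes alike, so they do not show that the arrays were alike before it. The replicates of a group correlated at r = 0.9965 to 0.9978 over all probe sets. Of the 7 housekeeping genes measured, 4 were called lower and 0 higher in normal 129 than in normal B6 retina (5.45% and 6.07% of all probe sets), with a median log2 difference of -0.26. Rod signal was high in the normal arrays, where the 4 rod genes measured averaged 13.85 to 13.90 on the log2 scale. They averaged 12.19 to 12.95 in the explants. The 4 cone genes averaged 11.22 to 11.62 in the normal arrays and 6.28 to 7.57 in the explants. The 5 pigmented epithelium genes averaged 8.14 to 9.29 in normal retina and at most 5.20 in the explants, and the 6 lens genes averaged 6.93 and 10.44 in the normal 129 arrays against 4.99 to 5.32 in the other 10. Pigmented epithelium signal was thus present in the normal arrays of both strains and low in the explants. Its part in the changes after damage was not tested. By the lens genes, the normal 129 arrays stood apart. Leaving out one of them ended some calls on member probe sets, turned a sign or moved values clearly. The values without it are then given beside the result. Other named genes are given without such values. RNA came from whole tissue, so fewer cells of a type and less RNA per cell cannot be told apart.

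The stretches of genome in front of the members that the results turn on are given first, from the RefSeq table on build GRCm38.p6. Each is the 250 bases before the start of the transcript, 5′ to 3′ on the strand of the gene. S100a4 and S100a6 are shown for their strain differences at 3DIV, Anxa2 as the partner of S100a10, and Anxa1 as the receptor ligand of the set. Capitals mark TGANTCA, the AP-1 motif, GGAATG or its reverse complement CATTCC, the TEAD motif, and TATAAA, the TATA box, which was added after the values were seen. They lie at chr3:90603520-90603769 (plus strand), chr3:90612644-90612893 (plus strand), chr19:20390672-20390921 (minus strand) and chr9:69453433-69453682 (plus strand), in that order.
S100a4: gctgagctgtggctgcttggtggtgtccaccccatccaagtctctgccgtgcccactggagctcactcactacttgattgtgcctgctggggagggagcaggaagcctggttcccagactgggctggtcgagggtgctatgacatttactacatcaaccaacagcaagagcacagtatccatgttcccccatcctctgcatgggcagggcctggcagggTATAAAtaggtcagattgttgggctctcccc
S100a6: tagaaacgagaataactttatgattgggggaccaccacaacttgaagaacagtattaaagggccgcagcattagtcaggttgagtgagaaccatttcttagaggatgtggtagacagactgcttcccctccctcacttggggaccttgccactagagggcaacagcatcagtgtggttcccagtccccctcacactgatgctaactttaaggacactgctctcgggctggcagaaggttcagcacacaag
Anxa1: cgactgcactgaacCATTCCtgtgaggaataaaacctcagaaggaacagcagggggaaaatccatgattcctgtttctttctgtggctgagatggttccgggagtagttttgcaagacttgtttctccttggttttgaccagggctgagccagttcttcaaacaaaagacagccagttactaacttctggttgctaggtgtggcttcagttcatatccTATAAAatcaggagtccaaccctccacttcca
Anxa2: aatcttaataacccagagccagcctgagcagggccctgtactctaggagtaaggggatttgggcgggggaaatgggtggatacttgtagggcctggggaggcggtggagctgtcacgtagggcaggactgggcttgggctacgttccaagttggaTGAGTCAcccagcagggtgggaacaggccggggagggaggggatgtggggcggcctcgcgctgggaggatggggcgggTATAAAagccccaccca

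The motifs were looked for in windows of 300 bases, from 250 before to 50 after the start, and 9 such windows were matched to 8 of the 10 genes (S100a10 and Anxa3 were not matched, and Anxa4 had 2 windows). TGANTCA, on either strand, was in 2 of the 9 windows, 95 bases before the start of Anxa2 and 136 and 38 bases before the start of S100a11. It was in 7.81% of all 32851 windows of that length. TATAAA, on the strand of the gene, was in 3 windows, 31 bases before the start of S100a4, 32 before Anxa1 and 17 before Anxa2, against 8.32% of all windows. GGAATG on either strand was in the Anxa1 window alone, 236 bases before the start, against 14.7% of all windows, and the STAT motif TTCNNNGAA was in none against 8.30%. None of these motifs overlapped another in the 4 sequences shown. A match describes these letters in this window and is no measure of binding.

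After damage, nearly the whole set rose in both strains. Of the 17 member probe sets, 14 were higher and 0 lower at 3DIV in B6, with a median log2 change of 1.45 against -0.02 over all probe sets, and the share of all probe sets called higher was 14.9% (16.6% lower). In 129, 13 were higher and 0 lower, with a median of 1.54 against -0.03, where 14.7% of all probe sets were higher and 15.9% lower. Counted with 1 probe set a gene, the one of highest mean level, all 9 genes rose in B6 and 8 in 129, the exception being S100a4. Calls are those of limma at an adjusted p under 0.05 over all 45037 probe sets, and at an unadjusted p under 0.05 there were 15 and 14 probe sets in B6 and 129. The changes in B6 and in 129 come from separate arrays, but the strain differences and the inhibitor effects below share arrays with them.

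**Figure D1:**
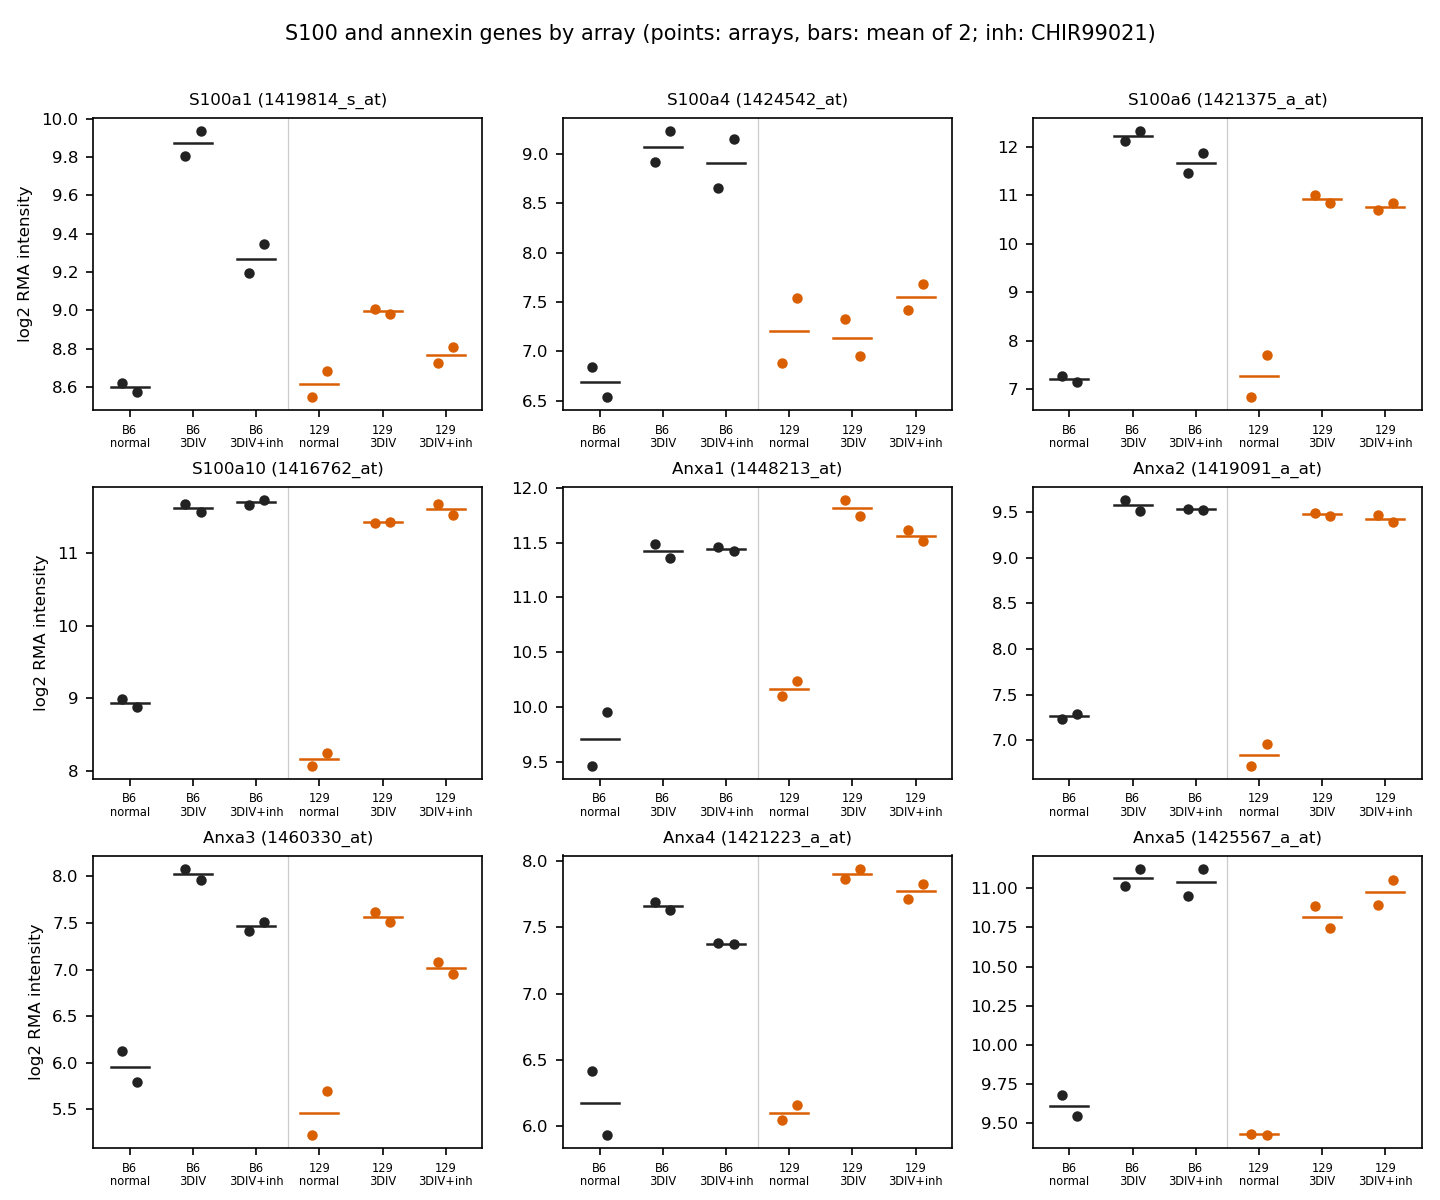
Log2 RMA intensity (vertical axis) of each of the 9 genes, by the probe set of highest mean level, in each of the 12 arrays, with points for arrays and short lines for group means. The B6 and 129 explants of S100a4 sit apart, with 8.66 to 9.24 in B6 and 6.95 to 7.69 in 129. For S100a10, Anxa2 and Anxa5 the strain difference in explants was smaller and not called.

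S100a6, also named calcyclin, a calcium sensor of dividing and stressed cells, changed most. Its probe set 1421375_a_at read 7.27 and 7.15 in normal B6 retina, 12.12 and 12.33 in B6 explants and 11.45 and 11.88 with the inhibitor. In 129 it read 6.84 and 7.70 in normal retina, 11.01 and 10.84 at 3DIV and 10.69 and 10.84 with the inhibitor. The normal groups overlapped, every explant was above every normal array, and all 4 B6 explants were above all 4 of 129. It rose by 5.02 in B6 (SE 0.23, 32.4-fold, limma adjusted p = 6.81e-08) and by 3.65 in 129 (SE 0.23, 12.6-fold, 5.70e-07), where the rise was 3.22 without normal replicate 1 and 4.08 without replicate 2. At 3DIV it was 2.46-fold lower in 129 (log2 difference -1.30, SE 0.23, limma adjusted p = 0.00250). The difference between the strains in the change itself was -1.36 (SE 0.32) and missed the threshold (limma adjusted p = 0.0538). That value rested on the normal 129 arrays, since it was -1.79 (adjusted p = 0.00444) without replicate 1 and -0.93 (0.0750) without replicate 2.

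S100a4, a calcium-binding partner of non-muscle myosin linked to cell motility and made by fibroblasts and some immune cells, rose in B6 but showed no detected rise in 129. Its probe set 1424542_at read 6.84 and 6.54 in normal B6 retina, 8.92 and 9.24 in B6 explants and 8.66 and 9.16 with the inhibitor. In 129 it read 6.88 and 7.54 in normal retina, 7.33 and 6.95 at 3DIV and 7.42 and 7.69 with the inhibitor. By mean level the order was B6 3DIV, B6 with inhibitor, 129 with inhibitor, 129 normal, 129 at 3DIV and B6 normal. The 2 B6 explant groups overlapped, as did 129 normal with both 129 explant groups, and B6 normal lay just below all arrays of 129.

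The change of S100a4 in B6 was 2.38 (SE 0.23, 5.21-fold, limma adjusted p = 2.08e-05) and in 129 -0.07 (SE 0.23, limma adjusted p = 0.860). The sign of the latter rested on the normal 129 arrays, at -0.40 without replicate 1 and 0.26 without replicate 2, with no call either way. The difference between these changes was -2.45 (SE 0.33, limma adjusted p = 0.00450), and it was called without any one array, from -2.78 to -2.12. At 3DIV S100a4 was 3.83-fold lower in 129 (-1.94, SE 0.23, limma adjusted p = 2.52e-04) and with the inhibitor 2.56-fold lower (-1.36, SE 0.23, 0.00351). In normal retina the strains differed by 0.52 (SE 0.23, 0.202), which was 0.85 without 129 normal replicate 1 and 0.19 without replicate 2. S100a4, S100a6 and Anxa4 stand among the candidate genes that the study picked from these arrays, so their strain differences here are not independent of that choice.

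S100a1, a calcium sensor best known from heart muscle and also made by neurons, was measured by 2 probe sets that moved together. Probe set 1419814_s_at read 8.62 and 8.58 in normal B6 retina, 9.81 and 9.94 in B6 explants and 9.19 and 9.34 with the inhibitor. The 129 arrays read 8.55 and 8.68, 9.01 and 8.98, and 8.73 and 8.81 in the same 3 states. The normal arrays of the strains overlapped, and every B6 explant was above every 129 explant. It rose by 1.27 in B6 (SE 0.084, limma adjusted p = 9.45e-07) and by 0.38 in 129 (SE 0.084, 0.00542), a difference of -0.89 (SE 0.12, 0.00428). The rise in 129 was lost without 129 normal replicate 1 (0.31, limma adjusted p = 0.0530). Probe set 1417421_at gave 1.09 in B6 (limma adjusted p = 6.81e-06) and 0.25 in 129 (0.0671, or 0.0413 without either B6 inhibitor array), a difference of -0.84 (0.00984) that was lost without 129 3DIV replicate 2 (0.0505).

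S100a10, also named p11, has lost calcium binding and is held in its active form, and it brings Anxa2 to the cell membrane. Probe set 1416762_at read 8.99 and 8.88 in normal B6 retina, 11.68 and 11.56 at 3DIV and 11.67 and 11.74 with the inhibitor. The 129 arrays read 8.07 and 8.25 in normal retina, 11.42 and 11.43 at 3DIV and 11.68 and 11.53 with the inhibitor. Both normal 129 arrays were below both normal B6 arrays, whereas the inhibitor-treated explants of the strains overlapped. The gene was 1.71-fold lower in normal 129 retina (-0.78, SE 0.088, limma adjusted p = 2.16e-04) and rose 6.43-fold in B6 (2.68, SE 0.088, 7.48e-09) and 9.62-fold in 129 (3.27, SE 0.088, 1.52e-09).

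The larger rise of S100a10 in 129 was called on 2 of its 3 probe sets. The difference between the changes was 0.58 on 1416762_at (SE 0.12, limma adjusted p = 0.0375) and 0.73 on 1456642_x_at (SE 0.15, 0.0288). Both calls sat near the threshold. The first was lost without any of 8 single arrays (both 129 3DIV, 129 normal 1, both B6 3DIV, B6 normal 1 and both B6 inhibitor arrays, adjusted p 0.0511 to 0.125), and the other without any of 7 (both 129 3DIV, both 129 normal, both B6 3DIV and B6 normal 1, 0.0595 to 0.104). Its other probe set, 1439348_at, rose by 0.84 in B6 (limma adjusted p = 0.00238) and 1.33 in 129 (9.19e-05), with a difference of 0.49 that missed the threshold (0.298) but was 0.81 (0.0281) without B6 normal replicate 1.

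Anxa2, the calcium-dependent membrane and actin binder that joins S100a10 and holds plasminogen activators at the cell surface, rose in both strains, as S100a10 did. Probe set 1419091_a_at read 7.24 and 7.29 in normal B6 retina, 9.63 and 9.51 at 3DIV and 9.53 and 9.52 with the inhibitor. In 129 it read 6.72 and 6.96 in normal retina, 9.49 and 9.46 at 3DIV and 9.47 and 9.39 with the inhibitor. All 8 explants were above all 4 normal arrays. It rose by 2.31 in B6 (SE 0.088, 4.95-fold, limma adjusted p = 1.98e-08) and by 2.63 in 129 (SE 0.088, 6.19-fold, 5.91e-09), and the difference of 0.32 missed the threshold (0.212). In normal retina it was lower in 129 by -0.42 (0.0101), a call lost without 129 normal replicate 1 (-0.30, 0.0917) or B6 normal replicate 2 (-0.40, 0.0565). Of its other probe sets, 1437692_x_at rose in 129 by 0.30 (limma adjusted p = 0.0230), a call lost without 129 normal replicate 1 (0.0707), 129 normal replicate 2 (0.103) or 129 3DIV replicate 1 (0.167). The probe set 1437691_at read 2.50 to 2.87 on all arrays and gave no call.

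Anxa1, also named lipocortin, which signals through formyl peptide receptors and limits inflammation, rose by like amounts in the strains. Probe set 1448213_at read 9.47 and 9.96 in normal B6 retina, 11.49 and 11.36 at 3DIV and 11.46 and 11.43 with the inhibitor. The corresponding 129 arrays read 10.10 and 10.23, 11.89 and 11.74, and 11.61 and 11.52 in the same 3 states. The 129 arrays were above the B6 arrays of the same state throughout, and the strain differences lay near the threshold. The difference was 0.46 in normal retina (limma adjusted p = 0.0542), from 0.21 to 0.70 with 1 array left out, and passed at 0.70 (0.00279) without B6 normal replicate 2. At 3DIV it was 0.39 (0.0664), and it passed without either normal B6 array (0.0104) and with only the arrays compared (0.0271). It rose by 1.71 in B6 (SE 0.14, 3.28-fold, limma adjusted p = 3.87e-06) and by 1.65 in 129 (SE 0.14, 3.14-fold, 4.68e-06), a difference of -0.06 (0.911). Its other probe set, 1444016_at, read 3.68 to 4.04 on all arrays and gave no call.

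Anxa3 and Anxa5 rose in both strains. Anxa3, an annexin of granulocytes and endothelium, read 6.12 and 5.79 in normal B6 retina, 8.08 and 7.96 at 3DIV and 7.41 and 7.51 with the inhibitor on 1460330_at. The levels in 129 were 5.23 and 5.70, 7.62 and 7.51, and 7.08 and 6.95. Its levels in 129 were below those of B6 in each state, by -0.50, -0.46 and -0.45, which just missed the threshold (limma adjusted p = 0.0553, 0.0527 and 0.0847). These calls depended on the setting. Without 129 normal replicate 1 the normal difference read -0.26 (0.343), and it passed at -0.73 (0.0103) with 129 normal replicate 2 left out and at -0.66 (0.0384) with B6 normal replicate 2 left out. The 3DIV difference passed in 8 other settings (0.0128 to 0.0479) and that with the inhibitor in 5 (0.0325 to 0.0496). It rose by 2.06 in B6 (SE 0.15, limma adjusted p = 1.81e-06) and 2.10 in 129 (SE 0.15, 1.42e-06).

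Anxa5, which binds phosphatidylserine on dying cells, read 9.68 and 9.55 in normal B6 retina, 11.02 and 11.12 at 3DIV and 10.95 and 11.12 with the inhibitor on 1425567_a_at. In 129 it read 9.43 and 9.43, 10.89 and 10.75, and 10.89 and 11.05. Every explant was above every normal array, and the inhibitor-treated explants of the strains overlapped. At 3DIV both 129 arrays were below both B6 arrays. That difference of -0.25 was not called, but it passed with cyclic loess (-0.28, limma adjusted p = 0.0487). It also passed with only probe sets above the median level (0.0418) and in the trended robust fit (0.0202). The rise was 1.45 in B6 (SE 0.093, 2.74-fold, limma adjusted p = 7.60e-07) and 1.38 in 129 (SE 0.093, 2.61-fold, 1.04e-06).

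Anxa4, an annexin of epithelial membranes, had 3 probe sets that disagreed on the strains. Probe sequences were not at hand, so sequence differences between the strains under the probes were not checked, for Anxa4 or any other member. By mean level the probe sets stood at percentile 64 (1421223_a_at), 49.4 (1424176_a_at) and 29.4 (1457658_x_at). On 1421223_a_at it read 6.41 and 5.94 in normal B6 retina, 7.69 and 7.63 at 3DIV, 6.05 and 6.16 in normal 129 retina and 7.86 and 7.94 at 3DIV. On 1424176_a_at the corresponding levels were 4.77 and 4.82, 5.74 and 5.92, 5.41 and 5.49, and 7.35 and 7.16. On 1457658_x_at they were 4.01 and 3.89, 4.65 and 4.51, 4.33 and 4.30, and 6.15 and 5.56. The strains overlapped in normal retina on the first probe set, whereas every 129 array was above every B6 array of the same state on the others.

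All 3 Anxa4 probe sets rose after damage, by 1.48, 1.03 and 0.63 in B6 and by 1.80, 1.80 and 1.54 in 129 in the order just given. The last B6 rise (limma adjusted p = 0.0125) was lost without B6 3DIV replicate 1 (0.0834) or B6 normal replicate 2 (0.0719). At 3DIV the strain difference was 0.24 (SE 0.13, limma adjusted p = 0.222) on 1421223_a_at (0.0495 without either normal B6 array), but 1.42 (SE 0.11, 1.03e-05) on 1424176_a_at and 1.28 (SE 0.16, 3.48e-04) on 1457658_x_at. With the inhibitor these were 0.39 (0.0772, or 0.00851 without either normal B6 array), 1.66 (3.88e-06) and 1.33 (3.53e-04). In normal retina only 1424176_a_at was called, at 0.65 (0.00249). The interaction of strain and damage was called on 1424176_a_at alone, at 0.77 (SE 0.15, limma adjusted p = 0.0267), which was lost without any of 7 single arrays (both 129 3DIV, both 129 normal, both B6 normal and B6 3DIV 1, 0.0510 to 0.0904). It was 0.31 (0.409) on 1421223_a_at, or 0.55 (0.0467) without B6 normal replicate 2, and 0.91 (0.0674) on 1457658_x_at, or 1.21 (0.0136) without 129 3DIV replicate 2.

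**Figure D2:**
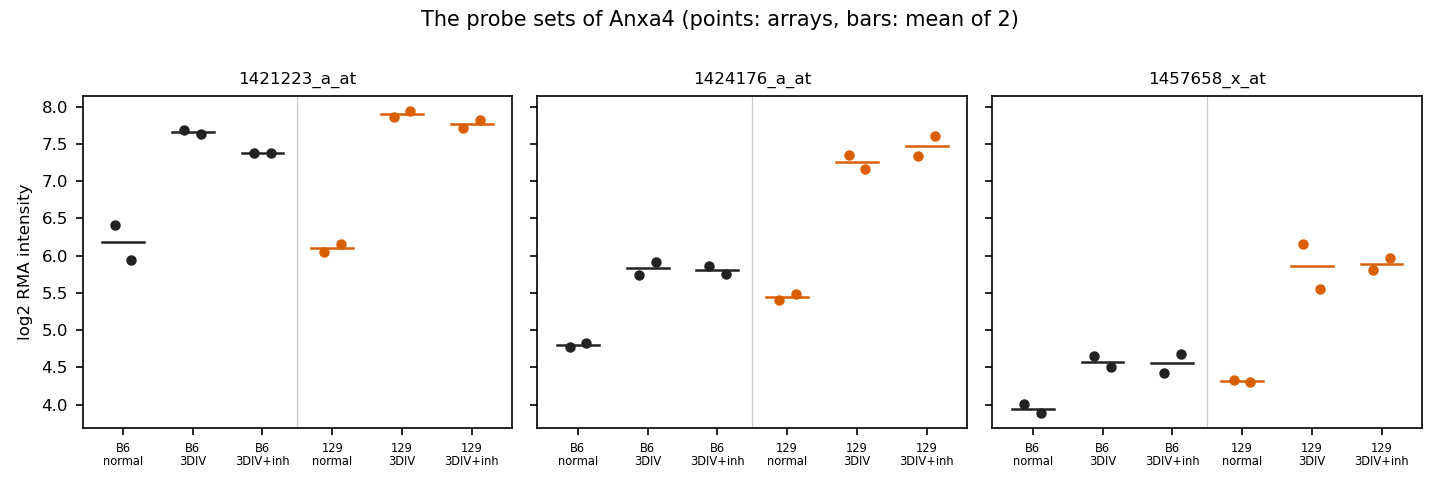
Log2 RMA intensity (vertical axis) of the 3 Anxa4 probe sets in each of the 12 arrays of B6 (black) and 129 (orange), with points for arrays and lines for group means. At 3DIV the strains differed by 0.24 on 1421223_a_at and by 1.42 and 1.28 on the other probe sets.

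Between the strains, the member differences called in explants were lower in 129 for S100a1, S100a4 and S100a6 and higher for 2 probe sets of Anxa4. In normal retina 1 of the 17 member probe sets was higher in 129 and 3 lower (6.07% and 5.45% of all probe sets). At 3DIV 2 were higher, both of Anxa4, and 4 lower, those of S100a1, S100a4 and S100a6 (11.4% and 8.57% of all). Counted with 1 probe set a gene, 0 were higher and 3 lower. Of 15 other genes of the families, 2 were called higher in 129 at 3DIV and 3 lower. Those higher were Anxa7 at 0.45 (limma adjusted p = 0.00222) and S100a16 at 0.38 (0.0130). Those lower were S100b at -1.004 (7.41e-04), S100a13 at -0.62 (0.00238) and Anxa6 at -0.36 (0.0134). The largest of these differences were thus S100 genes lower in 129. With the inhibitor the same 6 member probe sets were called in the same directions (6.01% and 4.88% of all). The S100a1 difference at 3DIV was -0.88 on 1419814_s_at (limma adjusted p = 5.40e-05) and -0.81 on 1417421_at (1.68e-04), and with the inhibitor it was -0.50 (0.00294) and -0.48 (0.00627). The last was lost without 129 inhibitor replicate 1 (0.0582) or B6 inhibitor replicate 2 (0.0567). S100a6 with the inhibitor was lower in 129 by -0.90 (0.0277), a call lost without 129 inhibitor replicate 1 (0.157), 129 inhibitor replicate 2 (0.0787) or B6 inhibitor replicate 2 (0.184).

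**Figure D3:**
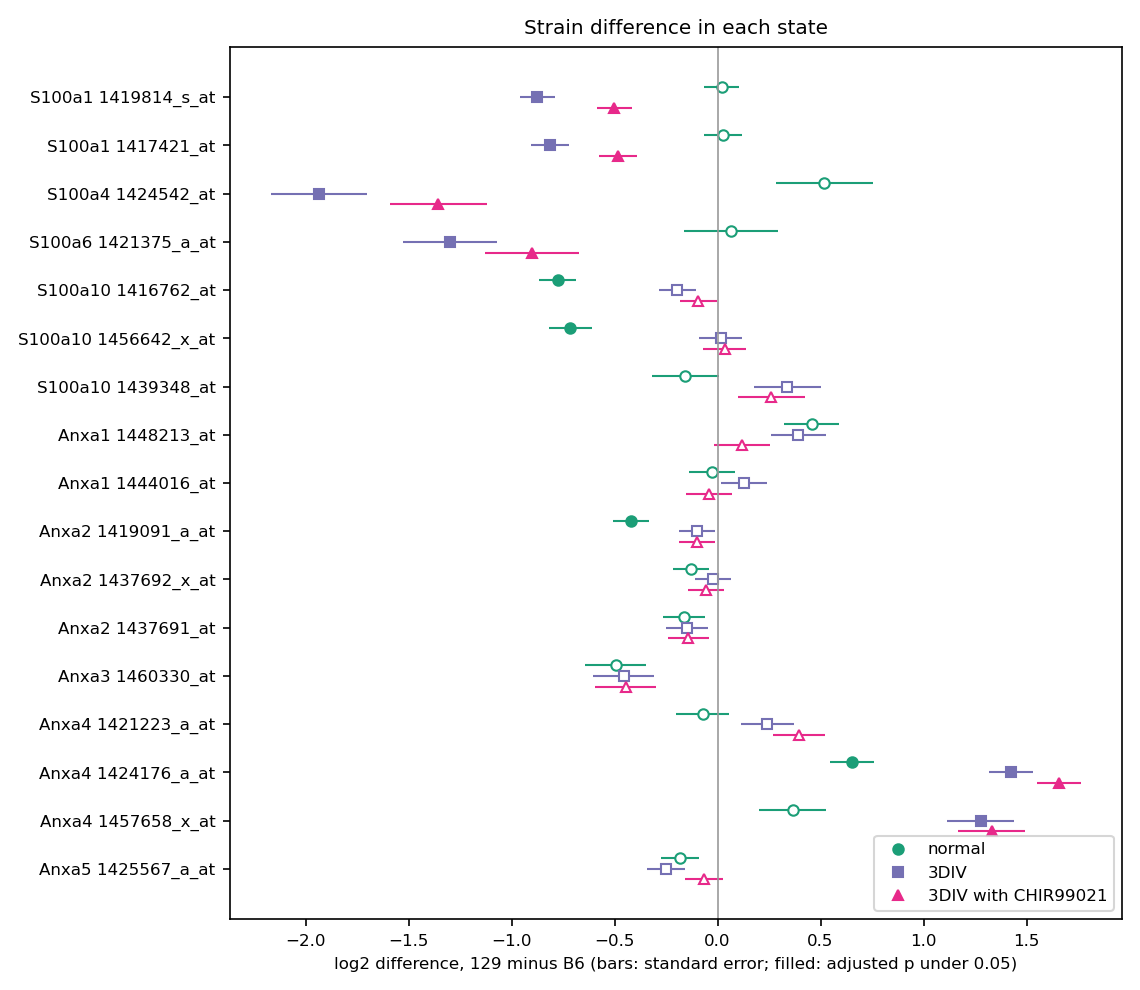
Log2 difference of 129 over B6 (horizontal axis, with SE bars) for each member probe set in the 3 states, with filled points for a limma adjusted p under 0.05. S100a4 lies at 0.52 in normal retina and at -1.94 at 3DIV, and S100a10 1416762_at moves from -0.78 to -0.19.

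The change after damage differed between the strains, by the test of the interaction, on 6 member probe sets, 3 higher in 129 (S100a10 on 1416762_at and 1456642_x_at, and Anxa4 on 1424176_a_at) and 3 lower (S100a4 and the S100a1 pair). Of all probe sets, 1.55% were called higher and 1.03% lower. Without 129 3DIV replicate 1, 129 3DIV replicate 2 or B6 3DIV replicate 1 the count was 3. Marker lists were read for the same comparison. The 14 microglia and macrophage genes averaged 6.19 to 6.33 in normal B6 retina, 7.98 to 8.10 in B6 explants, 5.71 to 5.76 in normal 129 retina and 6.97 to 7.003 in 129 explants. At 3DIV 13 of the 14 were lower in 129 (8.57% of all probe sets), and 5 had an interaction called lower and 0 higher. Of the 9 reactive gliosis genes 2 had an interaction called higher and 3 lower, and of the 8 Müller glia genes 0 had one. Several listed genes, among them Aif1, C1qc, Tyrobp, Gfap and Timp1, are also among the study's candidates picked from these arrays. Their strain differences are not independent of that choice. Whether these lists had a part in the member differences was not tested.

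**Figure D4:**
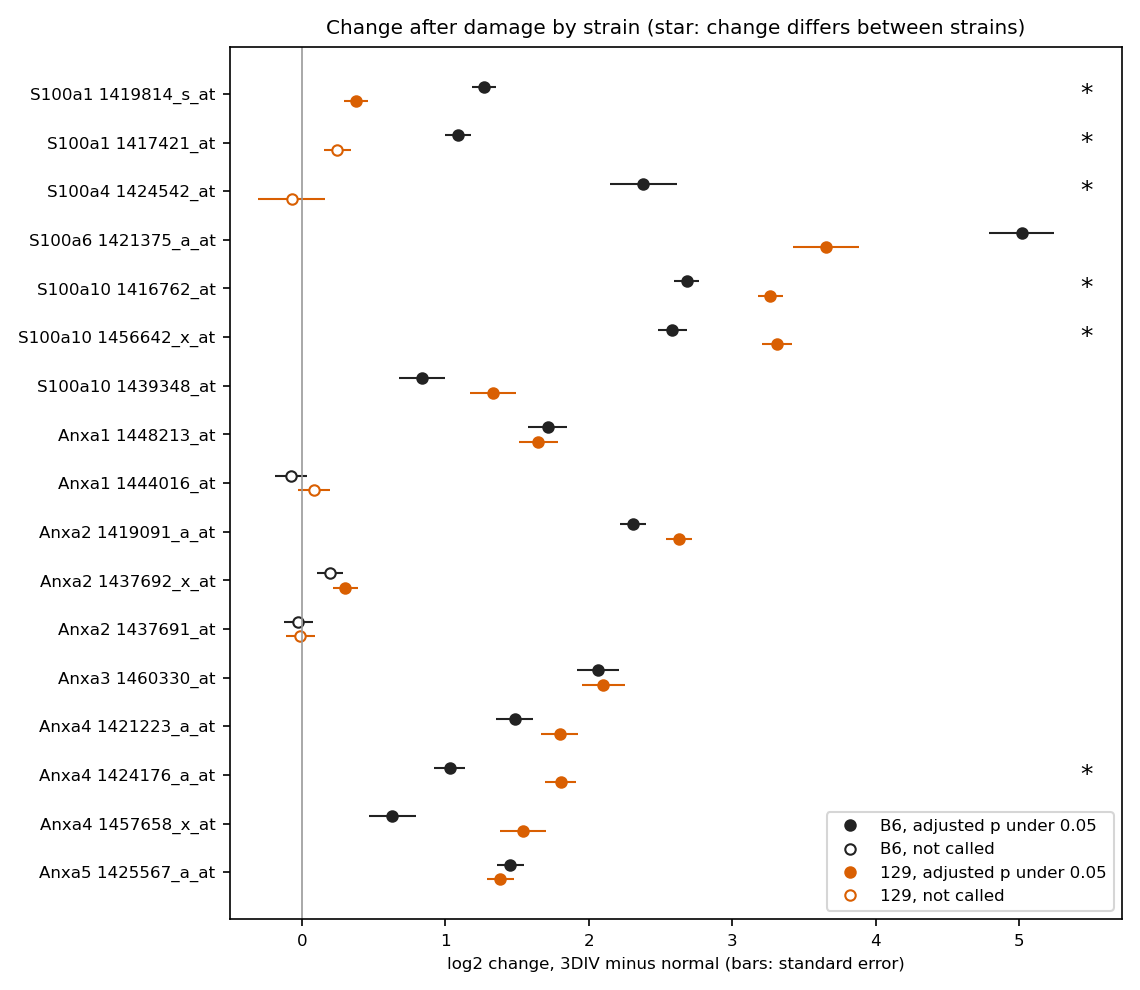
Log2 change of 3DIV over normal retina (horizontal axis, with SE bars) for each of the 17 member probe sets (vertical axis), in B6 (black) and 129 (orange), with filled points for a limma adjusted p under 0.05 and a star where the change differed between the strains. S100a4 lies at 2.38 in B6 and at -0.07 in 129, and S100a10 1416762_at at 2.68 and 3.27.

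The GSK3 inhibitor left most of the set near its 3DIV level. In B6 0 of the 17 probe sets were higher and 3 lower (9.42% and 9.18% of all), and in 129 0 were higher and 1 lower (5.87% and 6.38% of all). At an unadjusted p under 0.05, 6 and 3 member probe sets passed in either direction. Of the probe sets not called in B6, S100a6 read -0.56 and Anxa4 1421223_a_at -0.28. The S100a6 effect was called when either normal 129 array was left out, and that of Anxa4 without either normal B6 array. S100a1 fell by 0.60 in B6 on both probe sets (limma adjusted p = 8.83e-04 on 1419814_s_at and 0.00150 on 1417421_at), with values of -0.23 (0.108) and -0.27 (0.0853) in 129, which passed in the trended robust fit (0.0422 and 0.0437). Anxa3 fell by 0.56 in B6 (SE 0.15, limma adjusted p = 0.0237) and by 0.55 in 129 (SE 0.15, 0.0348). Both Anxa3 calls were lost without any one of the 4 arrays compared, B6 3DIV and inhibitor replicates 1 and 2 (0.0654 to 0.127) and the same of 129 (0.0918 to 0.168).

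The effect of the inhibitor did not differ detectably between the strains for any member. Of the 17 probe sets 0 were called by limma, against 0.389% of all probe sets higher and 0.966% lower, 2 had an unadjusted p under 0.05, and the lowest adjusted p was 0.180. The microglia and macrophage genes fell with the inhibitor too, 11 of 14 in B6 (9.18% of all probe sets) and 9 of 14 in 129 (6.38% of all, and 1 rose). Their average was 7.10 to 7.13 in B6 and 6.44 in 129, and its part in the fall of S100a1 and Anxa3 was not tested.

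The other genes of both families were taken from a list of 18, of which 15 had a probe set of their own (S100a7a, S100z and Anxa11 had none). After damage 6 were higher and 0 lower in B6, with a median of 0.11, and 5 were higher and 2 lower in 129, with a median of 0.04. Of all probe sets, 14.9% were higher and 16.6% lower in B6, and 14.7% and 15.9% in 129. S100a16 rose by 1.82 in B6 (limma adjusted p = 1.13e-07) and 2.32 in 129 (1.63e-08). S100a13, which takes part in the release of growth factors that lack a signal peptide, rose by 1.88 (3.59e-07) and 1.51 (1.64e-06). Anxa6, an annexin with a repeated core, rose by 1.39 (6.16e-07) and 1.02 (6.40e-06), and Anxa7 by 0.76 (2.87e-05) and 1.10 (1.49e-06). Another probe set of each of these annexins was not called in B6, Anxa6 1442288_at at 0.25 and Anxa7 1438764_at at 0.03.

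S100b, the calcium sensor used as a marker of astrocytes and some Müller glia, fell by 1.24 in 129 (limma adjusted p = 6.69e-05) and changed by -0.36 in B6 (0.0822). S100a3 fell by 0.58 in 129 (0.00216) and read 0.11 higher in B6 (0.481). The S100a3 probe set was dim, at percentile 25.4 of mean level, and its strain difference at 3DIV was -0.16 (limma adjusted p = 0.358). Both falls in 129 were measured from the normal 129 arrays, which stood apart by the lens genes. Over the same 15 genes, 2 were higher and 0 lower in normal 129 retina, 2 and 3 at 3DIV, and 0 and 2 with the inhibitor. The shares of all probe sets were 6.07% and 5.45%, 11.4% and 8.57%, and 6.01% and 4.88% in that order. The inhibitor raised 2 and lowered 1 in B6 (9.42% and 9.18% of all probe sets) and raised 2 and lowered 3 in 129 (5.87% and 6.38%). The interactions called 1 gene for damage (1.55% of all higher, 1.03% lower) and 0 for the inhibitor (0.389% and 0.966%). Several of these counts moved with the setting. The count for the inhibitor in 129, 5 in all, was 2 or 3 without any one of the 4 arrays compared, and that in normal retina was 0 without B6 normal replicate 2 or 129 normal replicate 1. The count for the interaction with damage ran from 0 to 4.

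Most S100 genes of the mouse stand in a row on chromosome 3, in the RefSeq order S100a1, S100a13, S100a14, S100a16, S100a3, S100a2, S100a4, S100a5, S100a6, S100a7a, S100a8 and S100a9. S100a7l2 follows after 1 other gene, and S100a11 and S100a10 stand side by side after 54 more protein-coding genes. Neighbours changed by unlike amounts. S100a5, which stands between S100a4 and S100a6, read -0.07 in B6 and -0.14 in 129 after damage, with no call. Its probe set was dim, at percentile 29.2 of mean level against 71.5 for S100a4 and 93.2 for S100a6, so a change could be missed. S100a8 rose by 0.44 in 129 (limma adjusted p = 0.00468) and read 0.24 higher in B6 (0.0782), at percentile 16.4 of mean level. S100a9 had no call, at 0.04 in B6 and -0.07 in 129. The 6 neutrophil genes, which include S100a8 and S100a9, averaged 4.61 to 4.79 on all arrays.

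**Figure D5:**
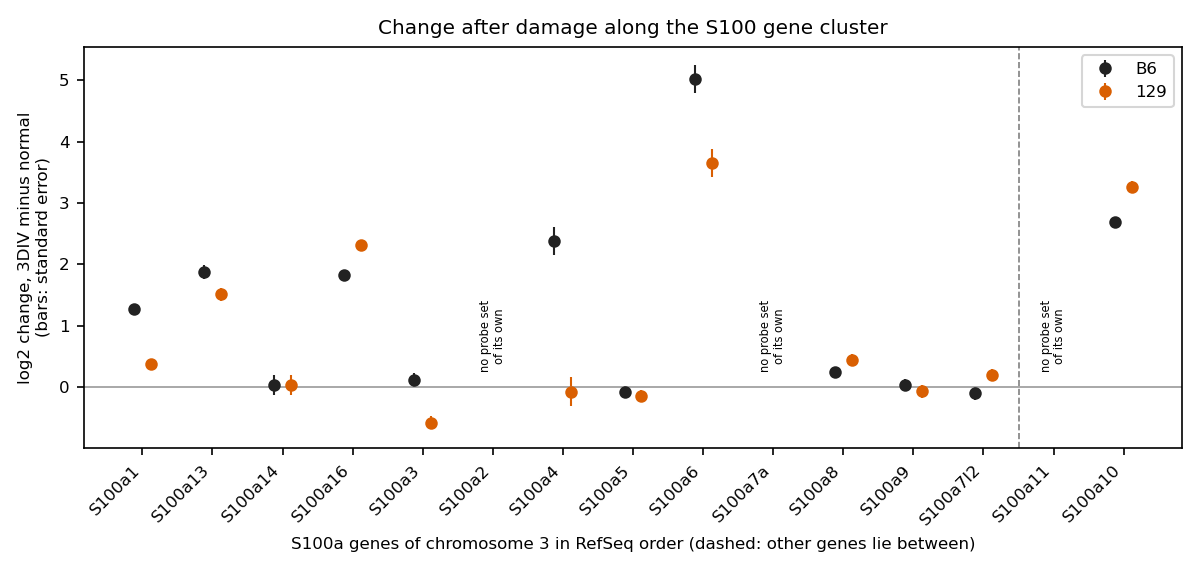
Log2 change after damage (vertical axis, with SE bars) of each S100 gene of chromosome 3 in B6 and 129, with genes in RefSeq order along the horizontal axis and not to scale. The changes of S100a4 (2.38 and -0.07) and S100a6 (5.02 and 3.65) flank S100a5 (-0.07 and -0.14).

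Partners and receptors of the set were counted from a list of 12 genes, of which 11 were measured (Fpr1 had no probe set of its own). After damage 7 were higher and 0 lower in B6, with a median of 0.57, and 6 were higher and 1 lower in 129, with a median of 0.42. The shares of all probe sets were 14.9% higher and 16.6% lower in B6, and 14.7% and 15.9% in 129. Plat, the tissue plasminogen activator that binds the complex of S100a10 and Anxa2, rose by 1.15 in B6 (limma adjusted p = 1.30e-06) and 1.54 in 129 (1.35e-07), and it was 1.01 higher in 129 at 3DIV (1.31e-05). Plat is also among the study's candidate genes picked from these arrays, so its strain difference is not independent of that choice. Capn2, a calcium-activated protease, rose by 1.13 (1.91e-06) and 1.53 (1.82e-07). Plaur, the urokinase receptor, rose by 0.96 (1.62e-04) and 1.06 (7.19e-05). Ahnak, the large scaffold bound by S100a10 and Anxa2, rose by 0.67 (0.00217) and 0.75 (9.81e-04). The 1 partner that fell was Fpr2, a receptor for Anxa1, by 0.30 in 129 (0.0354), and no interaction of strain with damage was called over the list.

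The rise of the set came with that of glial injury genes. All 9 reactive gliosis genes, among them Gfap, Vim and Lcn2, rose in both strains, with medians of 3.48 in B6 and 3.63 in 129, and averaged 7.27 to 7.40 in normal B6 retina, 10.92 to 10.95 in B6 explants, 6.84 to 7.08 in normal 129 retina and 10.54 to 10.61 in 129 explants. The 8 Müller glia genes had 4 higher and 4 lower in B6 and 2 higher and 4 lower in 129. The microglia and macrophage genes had 12 of 14 higher in B6 and 11 of 14 in 129, with medians of 1.54 and 0.83. Over all probe sets, 14.9% were higher and 16.6% lower in B6, and 14.7% and 15.9% in 129. Which cells gave the signal of the members, and the part of each list in their rise, was not tested.

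The genes whose levels followed each member most closely over the 12 arrays were named by Pearson's r, 3 a member, among the genes that varied by an SD of 0.5 or more on the log2 scale. These values are descriptions, since most genes that move with explantation share the step from normal retina to explant and all points share the same arrays. S100a10 and Anxa2 were among each other's 3 closest at r = 0.997, beside Psmb8 and Psmb10, subunits of the immunoproteasome, at 0.997 each. S100a4 was followed by Fgf2 (r = 0.954), Tnfrsf1b (0.952) and Trim30d (0.935), and S100a6 by Flrt3 (0.995), Cyb5r3 (0.994) and Tmem176b (0.993). The probe sets of Fgf2 and Trim30d, like that of S100a4, are among the candidates the study picked from these arrays by their strain difference. Anxa1 went with Sox9 (0.990), a transcription factor of Müller glia, and Notch1 (0.990), and Anxa3 with the metallothioneins Mt1 (0.993) and Mt2 (0.992). S100a1 was closest to Ccnd3 (0.978), Anxa4 to Sspn (0.989) and Anxa5 to Bst2 (0.995).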

How the data were processed

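Whole-retina RNA was measured on 1-colour oligonucleotide arrays. The authors deposited RMA values (background-corrected, quantile-normalized and summarised by probe set) as linear intensity, and versions are not given in the sources used here. These intensities were taken to log2 and 64 control probe sets left out. Probe sets were named through the platform annotation (34945 with 1 symbol, 932 with several, 9160 with none), and those with several were not named.

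Group means were estimated in 1 linear model over the 12 arrays of the 6 groups with limma 3.58.1 in R 4.3.3 (lmFit and eBayes, 6 residual and 4.69 prior degrees of freedom), with Benjamini-Hochberg adjustment over 45037 probe sets for each of 9 comparisons and a threshold of 0.05, two-sided. The fit was tested on simulated data. The number of arrays, 2 a group, limits the precision. Differences are 129 minus B6, 3DIV minus normal retina or inhibitor minus vehicle, and an interaction is the change in 129 minus that in B6.

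All member probe sets were named. Other family genes and partners, with 1 probe set a gene (the highest mean level), were named when called, up to 6 and 4, by the largest change after damage. The members and lists were chosen with earlier results of these data known. Alternatives were cyclic loess, only the arrays compared, only probe sets above the median level, the replicate number as a block, a trended robust fit and leaving out each array. Figures were drawn with matplotlib 3.10.9 under Python 3.11.15.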

Additional observations from a re-analysis of the deposited data

Results flagged for a closer look

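The change after damage differed between the strains, by the test of the interaction in limma, for 6 member probe sets. For S100a4 (1424542_at) the difference of 129 minus B6 was -2.45 on the log2 scale (SE 0.33, adjusted p = 0.00450), and for S100a1 it was -0.89 on 1419814_s_at (SE 0.12, 0.00428) and -0.84 on 1417421_at (SE 0.13, 0.00984). For S100a10 it was 0.58 on 1416762_at (SE 0.12, adjusted p = 0.0375) and 0.73 on 1456642_x_at (SE 0.15, 0.0288). For Anxa4 it was 0.77 on 1424176_a_at (SE 0.15, 0.0267), with 0.31 on 1421223_a_at (0.409) and 0.91 on 1457658_x_at (0.0674), which did not pass.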

How the results depend on the processing

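Of the 53 calls on member probe sets over the 9 comparisons, 53 kept their sign under every setting that gave them a value (13 have none among probe sets above the median level, the Anxa4 calls between strains included), 12 were lost without some array, and 3 of those 12 were also lost under another setting: S100a10 1416762_at in the strain by damage interaction with only the arrays compared (adjusted p = 0.0622) and with the replicate block (0.0558), Anxa2 1419091_a_at in normal retina with only the arrays compared, and S100a6 with the inhibitor in the trended robust fit (0.0959). In turn, 20 differences that were not called passed under some setting, among them the Anxa1 and Anxa3 strain differences and the S100a6 interaction. The last, not called in the report, passed with the replicate block (0.0444), with only probe sets above the median level (0.0288) and without 129 normal replicate 1 (0.00444). Replicate numbers were shared by all groups, and the deviations of same-numbered arrays correlated at -0.107 to 0.0436 over 15 pairs of groups. These values gave no sign of pairing by number, but they cannot exclude shared animals or handling. With the replicate block the counts of called member probe sets stayed at 4, 6, 6, 14, 13, 3, 1, 6 and 0 in the order of the 3 strain differences, the changes in B6 and 129, the inhibitor effects in B6 and 129 and the interactions with damage and inhibitor.

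Leaving out each array in turn gave 3 to 5, 6 to 10, 4 to 7, 13 to 15, 11 to 14, 2 to 4, 0 to 1, 3 to 6 and 0 to 0 in that order. The 3DIV count was 10 without B6 normal replicate 1 or 2. The inhibitor effect in 129 had 1 member called, 0 without any one of the 4 arrays compared, and 3 in the trended robust fit and with only probe sets above the median level. The counts over the 15 other genes of the families ran over all settings from 0 to 2 in normal retina (2 in the report), 3 to 6 at 3DIV (5), 1 to 3 with the inhibitor (2), 2 to 5 for the inhibitor in 129 (5) and 0 to 4 for the interaction with damage (1). The causes were not tested. Groups of 2 arrays limit how small a difference can be called, and dim probe sets near background carry little signal.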
